A study of Mus musculus with 40 samples.

Results

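The blood vessels of the brain were followed through 10 genes in bulk RNA sequencing of mouse cortex. Of these, 7 are markers or working parts of the endothelium (*Cldn5*, *Pecam1*, *Flt1*, *Tek*, *Slco1a4*, *Abcb1a* and *Slc2a1*) and 3 mark pericytes (*Pdgfrb*, *Rgs5* and *Kcnj8*). They were chosen by name as known genes of these cells, 10 of the 43346 genes in the count table, and all 10 were among the 21253 genes that passed the filter on low counts. The 40 mice fell into 4 groups of 10, each with 5 females and 5 males. The non-amyloid cohort (6 months of age) and the amyloid cohort (8.5 months of age) each held wild-type (WT) mice and mice homozygous for the *Trem2* H157Y knock-in (Hom), a mutation placed in the endogenous gene by CRISPR. All mice of the amyloid cohort, WT included, carried the 5xFAD transgenes, which hold 5 familial Alzheimer's disease mutations and are driven in neurons by the *Thy1* promoter. Age and transgenes therefore differed together between the cohorts and cannot be told apart. The mice were perfused before the cortex was taken.

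The endothelium of brain vessels forms the blood-brain barrier. Its cells are sealed by tight junctions, let few molecules pass between them and carry nutrients in and foreign compounds out through dedicated transporters. Pericytes are embedded in the wall of capillaries, are recruited by platelet-derived growth factor from the endothelium and help to keep the barrier closed. In bulk cortex both cell types are a minority, and fewer vascular cells and less RNA per cell cannot be told apart.

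Total counts per library ranged from 41646271 to 105903846, with a median of 77193387. A single library stood apart. Amyloid Hom replicate 19, a female, had the lowest total (the next lowest was 62272158), and 0.660% of its counts lay on genes annotated as antisense, against 0.0857% to 0.107% in the other 39. It was kept, and calls that were lost without it are named below with the value without it or as a count. *Trem2* itself averaged 10.7 ± 2.13 CPM (the count scaled to the total of its library, SD, n = 10) in non-amyloid WT, 10.4 ± 1.59 in non-amyloid Hom, 62.1 ± 24.4 in amyloid WT and 33.9 ± 10.3 in amyloid Hom mice. The knock-in changes a codon and leaves the gene in place, so this level does not check the genotype labels. Neuronal markers were abundant in every library of this cortical tissue, with 8 of them summing to between 7076 and 8900 CPM. The replicates are separate mice, and unless another tool is named, p-values for single genes come from the quasi-likelihood test of edgeR, with the Benjamini-Hochberg adjustment made over all genes tested. A gene was called where its adjusted p lay under 0.05 and its log2 fold change was larger than 0.25 in either direction.

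The members differed in base composition, which is given here because their variation between mice is later set beside it. The GC content of the longest transcript was 60.5% for *Cldn5*, 54.9% for *Pdgfrb*, 54.0% for *Slc2a1*, 53.3% for *Kcnj8*, 50.5% for *Flt1*, 50.2% for *Pecam1*, 47.1% for *Tek*, 45.2% for *Abcb1a*, 41.1% for *Rgs5* and 40.3% for *Slco1a4*. The median was 49.6% over 15053 other tested genes with a value and a mean of at least 1 CPM. The first 120 coding bases of 4 members from both ends of this order are shown, because they let the contrast be read directly. They were read from the mm10 genome with GENCODE vM21 transcripts, each written 5′ to 3′ on the coding strand with G and C in capitals, and a span longer than the sequence includes introns that were spliced out.
Cldn5 (chr16:18776996-18777115, + strand): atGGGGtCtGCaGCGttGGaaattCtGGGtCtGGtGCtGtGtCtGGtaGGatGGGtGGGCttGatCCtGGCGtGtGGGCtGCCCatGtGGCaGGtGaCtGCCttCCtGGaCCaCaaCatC
Slc2a1 (chr4:119108955-119132128, + strand): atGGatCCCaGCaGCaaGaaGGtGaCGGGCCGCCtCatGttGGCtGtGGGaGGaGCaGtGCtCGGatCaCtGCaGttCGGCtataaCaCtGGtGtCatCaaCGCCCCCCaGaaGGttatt
Rgs5 (chr1:169655578-169676902, + strand): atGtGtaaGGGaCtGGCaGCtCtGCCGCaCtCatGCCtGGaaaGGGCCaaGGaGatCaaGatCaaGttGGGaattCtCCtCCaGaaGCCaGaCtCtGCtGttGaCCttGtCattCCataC
Slco1a4 (chr6:141841340-141845468, - strand): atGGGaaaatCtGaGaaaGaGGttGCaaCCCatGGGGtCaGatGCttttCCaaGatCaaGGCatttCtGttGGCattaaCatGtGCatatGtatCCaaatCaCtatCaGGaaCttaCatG
In these stretches G and C made up 59.2% of the bases in *Cldn5*, 56.7% in *Slc2a1*, 51.7% in *Rgs5* and 40.8% in *Slco1a4*. Over the whole coding sequence the shares were 64.1%, 56.9%, 49.2% and 42.4% in the same order, so that much of the low GC content of the *Rgs5* transcript lies outside its coding sequence.

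To compare levels between genes, CPM were divided by the gene length in kilobases that the count table gives. *Rgs5*, a regulator of G-protein signalling that is abundant in pericytes, had the highest level per length at 21.3 ± 2.17 CPM per kb (SD, n = 40). *Slc2a1*, the glucose transporter GLUT1 of the barrier, followed at 20.5 ± 3.96, and *Slco1a4*, an organic anion transporter, at 14.2 ± 2.48. *Cldn5*, the claudin that seals brain endothelial tight junctions, stood at 7.56 ± 1.94 and *Abcb1a*, the efflux pump P-glycoprotein, at 6.80 ± 0.788. The receptors and adhesion molecules were lower. *Flt1*, the VEGF receptor VEGFR1, was at 5.18 ± 0.599, *Tek*, the angiopoietin receptor Tie2, at 3.57 ± 0.414, *Pecam1*, an adhesion molecule of endothelial contacts, at 3.49 ± 0.413, and *Pdgfrb*, the pericyte receptor for platelet-derived growth factor, at 3.32 ± 0.451. *Kcnj8*, the pore subunit of the pericyte ATP-sensitive potassium channel, was lowest at 1.01 ± 0.181. Neighbours in this order differed by less than the larger SD for *Rgs5* and *Slc2a1*, for *Cldn5* and *Abcb1a*, for *Tek* and *Pecam1*, and for *Pecam1* and *Pdgfrb*. *Slc2a1* is also expressed by astrocytes, so its level is not that of the endothelium alone.

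The endothelial members were annotated on mm10 as follows, with *Cldn5* at chr16:18776847-18778260, *Pecam1* at chr11:106654217-106750628, *Flt1* at chr5:147561604-147726011, *Tek* at chr4:94739289-94874976, *Slco1a4* at chr6:141805440-141856199, *Abcb1a* at chr5:8660077-8748575 and *Slc2a1* at chr4:119108711-119137330. Among the pericyte members *Pdgfrb* lies at chr18:61045150-61085061, *Rgs5* at chr1:169655501-169695813 and *Kcnj8* at chr6:142564939-142571356. Counts cover the exons of each gene, and 8 of the 10 share no exonic base with another annotated gene. A share of 10.1% of the exonic bases of *Abcb1a* and 2.995% of those of *Slc2a1* overlap a gene on the opposite strand, and reads there cannot be assigned with certainty because the strand setting of the counting is not given in the sources used here.

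**Figure D1:**
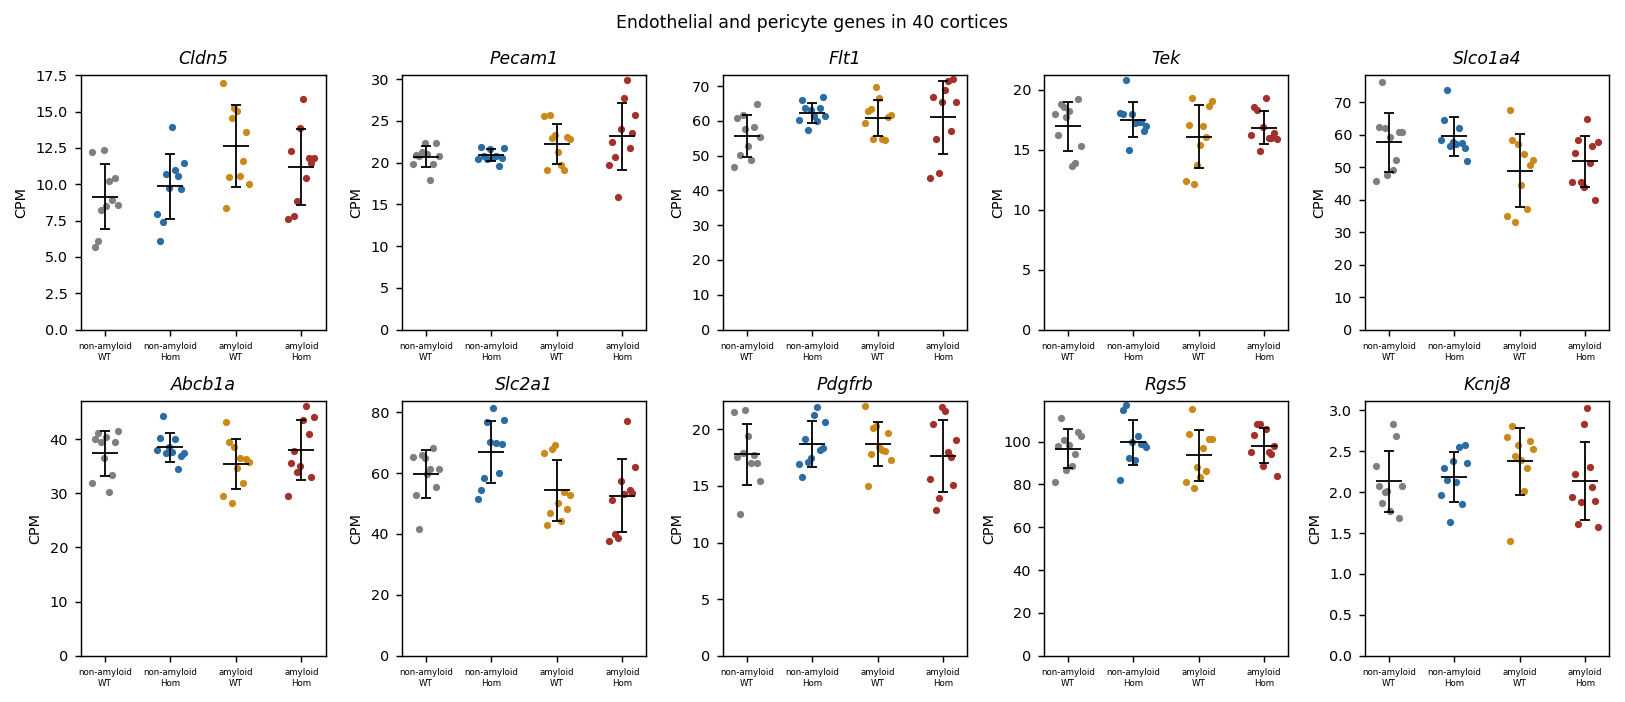
Level of each of the 10 genes (CPM, axes from 0) in the 10 mice of each group, with the group mean and SD as black bars. The 4 groups overlap for every gene, *Cldn5* is highest on average in amyloid WT mice (12.6 CPM) and *Slc2a1* in non-amyloid Hom mice (66.9 CPM).

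The first question was whether the H157Y mutation was accompanied by a change in these genes, within each cohort. It was not accompanied by one that passed the test. Of the 10 members, 0 were called between Hom and WT mice of the amyloid cohort, where 0.0753% of all genes were called (16 of 21253), and 0 passed an unadjusted p under 0.05, which 9.89% of all genes did. In the non-amyloid cohort 0 members were called, against 0.0329% of all genes (7 of 21253), and 1 member passed an unadjusted p under 0.05, against 4.61% of all genes. DESeq2 and limma-voom with quality weights called 0 members in both cohorts as well. The count over all genes in the amyloid cohort varied, at 6 to 204 with a library left out, 303 by DESeq2, 243 with sex as a covariate and 612 in one fit of all 40 libraries, while 0 members were called in each of these fits.

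In the amyloid cohort 6 members were higher and 4 lower in Hom mice, with log2 fold changes from -0.17 to 0.11 and a median of 0.03, beside a median of 0.01 over all genes. *Cldn5* in amyloid WT mice had a lowest value of 8.36, a median of 12.6 and a highest value of 16.98 CPM, and in amyloid Hom mice 7.60, 11.6 and 15.9. The ranges overlapped almost entirely, and the log2 fold change was -0.17 (95% confidence interval -0.47 to 0.12, adjusted p = 0.679). *Abcb1a* stood at the other end with 0.11 (-0.07 to 0.29, adjusted p = 0.671). *Kcnj8* had -0.15 (-0.43 to 0.13) and *Pdgfrb* -0.08 (-0.28 to 0.12), while the third pericyte gene, *Rgs5*, had 0.07 (-0.07 to 0.21). The endothelial receptors *Flt1* (0.01, -0.17 to 0.19) and *Tek* (0.07, -0.10 to 0.25), with *Pecam1* (0.06, -0.13 to 0.25), *Slco1a4* (0.09, -0.16 to 0.33) and *Slc2a1* (-0.04, -0.30 to 0.22), also had intervals that included 0. The widest of these intervals, that of *Cldn5*, runs from 0.724 to 1.09 as a fold, so that a moderate decrease cannot be told from none. Without replicate 19 the log2 fold changes ran from -0.14 for *Cldn5* to 0.13 for *Abcb1a*, with *Pecam1* at 0.11 and *Flt1* at 0.05.

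In the non-amyloid cohort all 10 members had a positive log2 fold change, from 0.01 for *Pecam1* to 0.17 for *Slc2a1*, with a median of 0.05 beside 0.00 over all genes. The directions are not independent, since many pairs of members were correlated between mice, some of them inversely (as described further on). With the GC measure described below as a covariate, *Cldn5* turned to -0.01 and the other 9 members were positive, with a median of 0.07 over the 10. In that fit 2 members had an unadjusted p under 0.05, as did 1800 of all 21253 genes. In the main fit *Flt1* had the lowest p. It ran from 46.8 over a median of 56.6 to 64.99 CPM in WT mice and from 57.3 over 62.4 to 67.0 in Hom mice. All 10 Hom mice were above the WT median, and the ranges overlapped. The log2 fold change was 0.17 ± 0.06 (SE, n = 10 and 10), with an unadjusted p of 0.00686 and an adjusted p of 0.965. *Slc2a1* had 0.17 ± 0.10 (adjusted p = 0.965), and its 6 highest Hom mice lay above every WT mouse.

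No member passed a test of the interaction, that is, of whether the difference between Hom and WT mice itself differed between the cohorts. Here 0 of 10 members and 0% of all genes had an adjusted p under 0.05, and 0 members had an unadjusted p under 0.05, which 10.3% of all genes had (2189 of 21253). Over all genes DESeq2 found 38 at an adjusted p under 0.05 and limma-voom 0. The largest interaction among the members was -0.29 ± 0.21 on the log2 scale for *Cldn5* (adjusted p = 0.595), followed by -0.21 ± 0.16 for *Slc2a1* (adjusted p = 0.598).

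**Figure D2:**
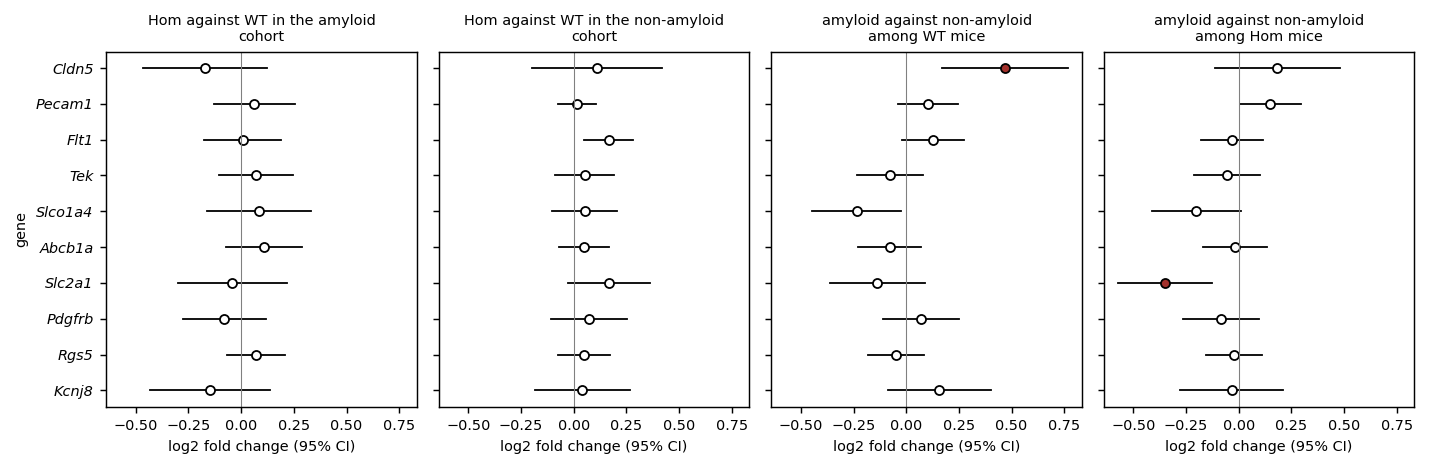
Log2 fold change of each member with its 95% confidence interval in 4 comparisons, where filled points were called and open points were not. No member was called between Hom and WT mice, *Cldn5* was called between the cohorts among WT mice (0.47) and *Slc2a1* among Hom mice (-0.35).

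The second question was how the vascular genes differed between the amyloid and the non-amyloid cohort. Among WT mice 1 of the 10 members was called, against 7.95% of all genes (1689 of 21253), and 2 passed an unadjusted p under 0.05, against 20.9% of all genes. Among Hom mice 1 member was called, against 6.56% of all genes (1395 of 21253), and 2 passed an unadjusted p under 0.05, against 22.6% of all genes. How often the members were called compared with other genes was not tested. The medians over the members were 0.01 among WT and -0.03 among Hom mice on the log2 scale, beside 0.00 and 0.03 over all genes.

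*Cldn5* was the member called among WT mice. It had a lowest value of 5.71, a median of 8.75 and a highest value of 12.4 CPM in the non-amyloid group, and 8.36, 12.6 and 16.98 in the amyloid group. Of the 10 amyloid mice, 5 were above every non-amyloid mouse and 9 above the non-amyloid median. The log2 fold change was 0.47 ± 0.15 (SE), a 1.38-fold higher level, with an adjusted p of 0.0341. The call was narrow. With each of the 40 libraries left out in turn it disappeared 10 times (amyloid WT replicates 5, 12, 13, 22 and 32 and non-amyloid WT replicates 7, 15, 17, 24 and 38, adjusted p up to 0.0827) and without the filter on low counts (adjusted p = 0.0663). Over the 40 fits the log2 fold change stayed between 0.41 and 0.53. Among Hom mice *Cldn5* ran from 6.11 over 10.1 to 13.9 CPM in the non-amyloid group and from 7.60 over 11.6 to 15.9 in the amyloid group. That difference, 0.18 ± 0.15, did not pass the test (adjusted p = 0.462), and the interaction given above shows that a difference between the genotypes was not established by a test.

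*Slc2a1* was the member called among Hom mice. It had a lowest value of 51.6, a median of 69.6 and a highest value of 81.5 CPM in the non-amyloid group, and 37.5, 53.4 and 77.2 in the amyloid group. Of the amyloid mice, 4 were below every non-amyloid mouse and 1 was above the non-amyloid median. The log2 fold change was -0.35 ± 0.11, a level of 0.785 times that of the non-amyloid mice, with an adjusted p of 0.0438. This call was lost without amyloid Hom replicate 19 (-0.31, adjusted p = 0.103), without any of 12 other libraries, namely amyloid Hom replicates 3, 10, 16, 30, 34 and 39 and non-amyloid Hom replicates 11, 14, 20, 21, 35 and 37 (each left out alone), and when the 20 Hom libraries were fitted alone (-0.36, adjusted p = 0.0603). Among WT mice the values ran from 41.6 over 61.3 to 68.3 CPM in the non-amyloid and from 43.1 over 51.5 to 69.2 in the amyloid group, and the difference of -0.14 ± 0.11 did not pass the test (adjusted p = 0.549).

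None of the other members was called between the cohorts in the main fit. *Slco1a4* was lower by a log2 fold change of -0.23 ± 0.10 among WT mice (unadjusted p = 0.0306, adjusted p = 0.176) and of -0.20 ± 0.10 among Hom mice (adjusted p = 0.246). *Pecam1* had 0.10 ± 0.07 among WT and 0.15 ± 0.07 among Hom mice (unadjusted p = 0.0414 in Hom, adjusted p = 0.201), and 0.20 ± 0.06 among Hom mice without replicate 19 (adjusted p = 0.0571). The pericyte genes *Pdgfrb* (0.07 ± 0.09 among WT and -0.09 ± 0.09 among Hom mice), *Rgs5* (-0.05 ± 0.07 and -0.02 ± 0.07) and *Kcnj8* (0.16 ± 0.12 and -0.03 ± 0.12) did not pass the test in either genotype. Neither did *Tek* (-0.08 ± 0.08 and -0.06 ± 0.08), *Abcb1a* (-0.08 ± 0.07 and -0.02 ± 0.07) or *Flt1* (0.13 ± 0.07 and -0.03 ± 0.07). The comparisons among WT and among Hom mice share no mice, but they share the 40-library fit and its estimate of the spread.

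Females and males were compared across all 40 mice with the group as a covariate. None of the 10 members was called, against 0.358% of all genes (76 of 21253), and 1 passed an unadjusted p under 0.05, against 8.74% of all genes. That member was *Flt1*, at 57.0 CPM in females and 63.1 in males on average (n = 20 each), with a log2 fold change of -0.15 ± 0.05 (unadjusted p = 0.00300, adjusted p = 0.174). Only 1 of the 20 females was above the male median, and the ranges overlapped. DESeq2, limma-voom and upper-quartile normalization each put 2 members at an unadjusted p under 0.05 and called 0. Of all genes these fits put 1907, 2351 and 1836 at an unadjusted p under 0.05, in the same order, and called 164, 229 and 85.

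The third question was whether the members vary together from mouse to mouse, as markers of a shared cell type would if the amount of that cell type varied. Pearson's r was computed between log2 CPM with the group means removed, over 40 mice and all 45 pairs, with a permutation test of 100000 resamples within groups and Benjamini-Hochberg adjustment over the 45 pairs. An adjusted p under 0.05 was reached by 21 pairs, of which 15 were positive and 6 negative, and 20 of these 21 had the same sign in both cohorts. Within the cohorts the count was 19 pairs in the amyloid and 12 in the non-amyloid mice.

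The pairs did not follow the division into endothelial and pericyte genes. *Cldn5* varied most closely with the pericyte receptor *Pdgfrb* (r = 0.762, rho = 0.731, both with p = 1e-05, the smallest that the permutations can give). In the amyloid cohort this r was 0.853 and in the non-amyloid cohort 0.674, and without the 2 mice farthest from the median it was 0.798. *Cldn5* also varied with *Slc2a1* (r = 0.699, rho = 0.680, permutation p = 1e-05 and 2e-05), and *Slc2a1* with *Pdgfrb* (r = 0.658, rho = 0.647, permutation p = 3e-05 for both). A further block crossed the line between the cell types in the same way. *Slco1a4* varied with *Abcb1a* (r = 0.834, rho = 0.854, permutation p = 1e-05 for both) and also with the pericyte gene *Rgs5* (r = 0.675, rho = 0.657, permutation p = 2e-05 and 5e-05). Between the blocks the relation was inverse, as for *Cldn5* and *Rgs5* (r = -0.559, rho = -0.572, permutation p = 0.00023 and 0.0002) and for the 2 pericyte genes *Pdgfrb* and *Rgs5* (r = -0.466, rho = -0.442, permutation p = 0.00191 and 0.00504). *Cldn5* and *Slco1a4*, both endothelial, were inversely related as well (r = -0.446, rho = -0.441, permutation p = 0.00518 and 0.00712). *Pecam1* and *Flt1* formed a pair of their own (r = 0.691, rho = 0.590, permutation p = 6e-05 and 0.00044). All of these pairs kept an adjusted p under 0.05, with the largest adjusted p at 0.013 by r and 0.0214 by rho.

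**Figure D3:**
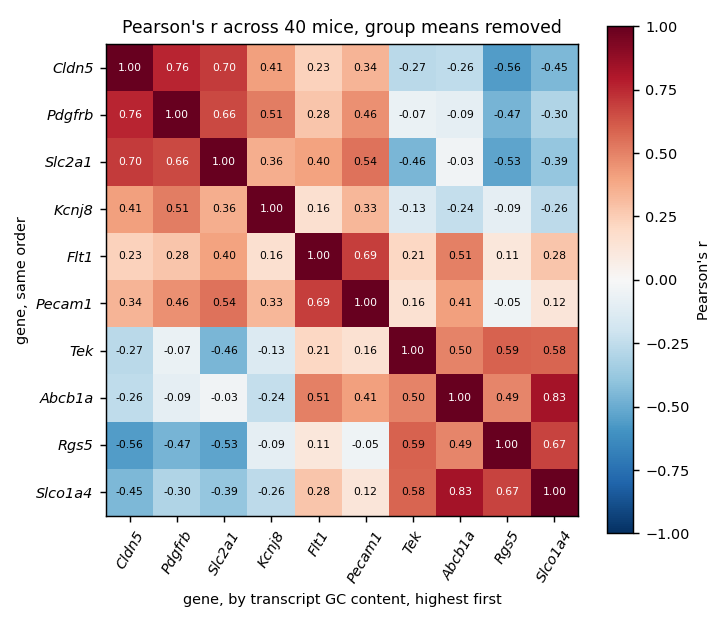
Pearson's r between each pair of members over 40 mice, with group means removed and genes ordered by the GC content of their longest transcript (highest first). Red cells (positive r) gather at both ends of the diagonal and blue cells (negative r) in the corners, with *Slco1a4* and *Abcb1a* at 0.83 and *Cldn5* and *Rgs5* at -0.56.

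The order of the blocks was that of base composition, so a GC measure was computed for each library. It is the median deviation in log2 CPM of the 10% of genes with the highest transcript GC content (1506 genes, at least 57.8%) minus that of the 10% with the lowest (1506 genes, at most 41.3%), among genes with a mean of at least 1 CPM. It ranged from -0.87 to 0.59 over the libraries. Its group means were -0.01 in non-amyloid WT, 0.14 in non-amyloid Hom, 0.02 in amyloid WT and -0.16 in amyloid Hom mice, with SDs from 0.30 to 0.44. With group means removed, *Cldn5* followed this measure closely over the 40 mice (r = 0.848, rho = 0.826, permutation p = 1e-05 for both), and so did *Pdgfrb* (r = 0.783, rho = 0.728, permutation p = 1e-05 for both) and *Slc2a1* (r = 0.696, rho = 0.714, permutation p = 1e-05 for both). *Kcnj8* had r = 0.461 (rho = 0.446, permutation p = 0.00419 and 0.00538), which fell to 0.328 without the 2 mice farthest from the median of the measure and was 0.235 within the non-amyloid cohort. *Flt1* (r = -0.013, rho = -0.099, permutation p = 0.935 and 0.550) and *Pecam1* (r = 0.164, rho = 0.135, permutation p = 0.286 and 0.413) did not follow it.

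The AT-rich members went the opposite way. *Slco1a4* had r = -0.715 (rho = -0.689) and *Rgs5* r = -0.700 (rho = -0.675), both with a permutation p of 1e-05, *Abcb1a* r = -0.516 (rho = -0.536, permutation p = 0.00091 and 0.00061) and *Tek* r = -0.402 (rho = -0.338, permutation p = 0.0190 and 0.0417). Of these 10 relations, adjusted together, 8 had an adjusted p under 0.05 by r, with *Tek* at 0.0238. By rho the adjusted p of *Tek* was 0.0521. The direction held within the amyloid and the non-amyloid cohort for the 8, with *Cldn5* at 0.783 and 0.904 and *Slco1a4* at -0.646 and -0.874. Without the 2 farthest mice *Cldn5* had 0.825 and *Slco1a4* -0.628. Across the 10 genes, the GC content of the transcript and the r with the measure had a correlation of 0.961, given as a description, since the genes share their libraries. The 10 members were left out of the genes that make up the measure.

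**Figure D4:**
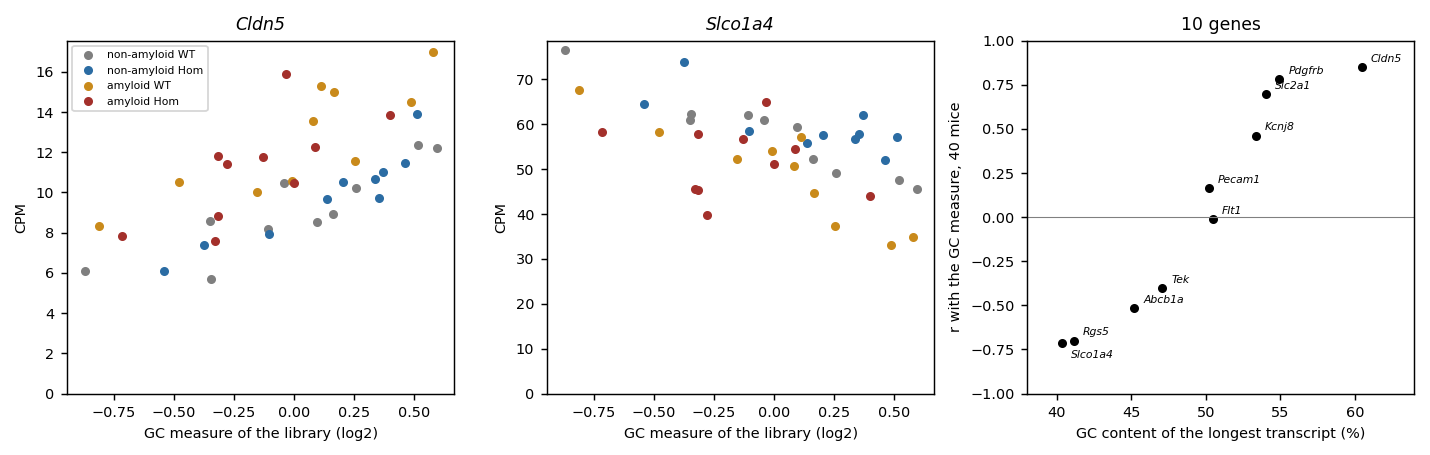
Left and middle, CPM of *Cldn5* and *Slco1a4* against the GC measure of each library (log2), coloured by group. Right, the r of each member with the measure over 40 mice against the GC content of its longest transcript (%), which rises from -0.715 for *Slco1a4* to 0.848 for *Cldn5*.

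With the GC measure regressed out, 43 of the 45 pairs had a positive r, compared with 28 before, and 17 pairs had an adjusted p under 0.05, all 17 of them positive. *Cldn5* and *Slco1a4* turned from -0.446 to 0.434 (adjusted p = 0.0462), *Slco1a4* and *Pdgfrb* from -0.303 to 0.593 (adjusted p = 0.00285), and *Abcb1a* and *Slc2a1* from -0.033 to 0.530 (adjusted p = 0.0196). *Slco1a4* with *Abcb1a* (0.777) and *Pecam1* with *Flt1* (0.703) stayed close to their earlier values. *Cldn5* with *Pdgfrb* fell to 0.298 (adjusted p = 0.172) and *Cldn5* with *Slc2a1* to 0.287 (adjusted p = 0.214). Of the 21 pairs that had passed before, 9 passed in both, 8 of them positive both times. The measure was chosen after the pairs had been seen, and what sets it in these libraries was not tested.

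The cohort differences of single members also moved with the measure as a covariate. *Cldn5* was then called in both genotypes, at 0.45 ± 0.08 among WT mice (adjusted p = 6.36e-05) and 0.43 ± 0.09 among Hom mice (adjusted p = 0.000775). *Slco1a4* was called among Hom mice (-0.33 ± 0.08, adjusted p = 0.00407), while among WT mice it reached an adjusted p of 0.0278 at -0.23 ± 0.07, below the fold threshold. *Slc2a1* was no longer called among Hom mice (-0.21 ± 0.08, adjusted p = 0.141). The share of all genes called in these fits was 9.55% among WT mice (2029 of 21253), where 1 member was called, and 5.86% among Hom mice (1245 of 21253), where 2 were. The interaction of *Cldn5* was then -0.03 ± 0.12. Between Hom and WT mice 0 members were called with the covariate, against 0.0329% of all genes in the amyloid and 0.0518% in the non-amyloid cohort.

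By Pearson's r over the 40 mice with group means removed, the genes most like the mean of the 7 endothelial members, among 15188 genes with a mean of at least 1 CPM, were *Itih5* (0.623), *Ptgds* (0.608), *Cyyr1* (0.603), *Galnt16* (0.601) and *Rnd2* (0.598). Those most like the mean of the 3 pericyte members were *Vtn* (0.734), *Myl9* (0.728), *Myh11* (0.699), *Lrrc32* (0.662) and *Zfp687* (0.658). *Vtn* is on the list of other pericyte markers, and *Myl9* and *Myh11* are contractile proteins of vascular smooth muscle. The GC measure was not removed here. The 5 genes of the pericyte group had a GC content of 53.1% (*Myh11*) to 58.3% (*Lrrc32*) and an r with the measure of 0.357 (*Myh11*) to 0.780 (*Zfp687*), while those of the endothelial group ran from 42.9% (*Cyyr1*) to 57.5% (*Rnd2*) and from -0.318 (*Itih5*) to 0.729 (*Rnd2*). With the measure regressed out, the r with the members' mean was 0.543 (*Lrrc32*) to 0.648 (*Vtn*) for the pericyte group and 0.581 (*Galnt16*) to 0.738 (*Itih5*) for the endothelial group. Other genes were not ranked anew.

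Lists of further vascular genes were read beside the members. They were put together with earlier results of these data known and are described by their counts. In the main fits no gene of any list was called between Hom and WT mice in either cohort. The lists were not read in the fits by DESeq2 or with sex as a covariate. In the amyloid cohort those fits called 303 and 243 of all genes, against 16 in the main fit. That main fit includes amyloid Hom replicate 19, and the list calls for Hom against WT without it are not given here. With a library left out, the count over all genes also changed, as described above. Among the 20 other endothelial markers the median log2 fold change was -0.03 in the amyloid and 0.06 in the non-amyloid cohort, with the lowest p at *Ctla2a* (-0.51 ± 0.27, adjusted p = 0.545) and *Podxl* (0.16 ± 0.05, adjusted p = 0.965). Among the 12 other pericyte markers the medians were -0.07 and 0.00, with the lowest p at *Notch3* (-0.39 ± 0.20, adjusted p = 0.526) and *Art3* (-0.14 ± 0.08, adjusted p = 0.965). *Abcc9*, which forms the potassium channel together with the *Kcnj8* product, had 0.04 ± 0.07 in the amyloid and 0.06 ± 0.08 in the non-amyloid cohort. The lowest p of the junction list in the amyloid cohort was that of *F11r*, which encodes the junctional adhesion molecule JAM-A (-0.45 ± 0.11, adjusted p = 0.0781), and of the transporter list that of *Slco2b1* (-0.46 ± 0.12, adjusted p = 0.0798). In the non-amyloid cohort these were *Esam* (0.11 ± 0.08, adjusted p = 0.965) and the amino acid transporter *Slc7a5* (0.23 ± 0.06, adjusted p = 0.698).

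Between the cohorts a few genes around the members were called. Of all genes, 7.95% were called among WT and 6.56% among Hom mice in these comparisons. Whether the genes of a list were called more often than that was not tested. Among the 9 VEGF ligands and receptors, 3 rose among WT mice, the co-receptors *Nrp1* (0.45 ± 0.09, adjusted p = 0.000149) and *Nrp2* (0.32 ± 0.08, adjusted p = 0.00967) and *Kdr*, the main signalling receptor VEGFR2 (0.27 ± 0.08, adjusted p = 0.0164), and 0 among Hom mice, where *Kdr* had 0.248 ± 0.08 with an adjusted p of 0.0407 and lay just under the fold threshold. *Vegfa*, the ligand, had 0.01 ± 0.10 among WT and -0.07 ± 0.10 among Hom mice. Of the 4 tested angiopoietin and Tie genes beside *Tek*, *Angpt1*, the ligand that activates Tie2, rose among Hom mice (0.59 ± 0.13, adjusted p = 0.00234) and had 0.33 ± 0.13 among WT mice (adjusted p = 0.115), and their difference did not pass the test of the interaction (adjusted p = 0.589). *Angpt2*, the context-dependent ligand of Tie2, had 0.51 ± 0.18 among WT mice (adjusted p = 0.0585) and 0.29 ± 0.18 among Hom mice, and *Tie1* -0.10 ± 0.13 and -0.33 ± 0.13. None of the 5 PDGF genes was called, with *Pdgfb*, the ligand of the *Pdgfrb* receptor, at 0.16 ± 0.14 and -0.12 ± 0.14.

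Of the 12 junction genes, 1 rose in each genotype, *F11r*, with 1.05 ± 0.09 among WT (adjusted p = 8.22e-12) and 0.57 ± 0.09 among Hom mice (adjusted p = 2.53e-05). Of the 14 transporters, 2 rose in each genotype. *Slco2b1* had 1.07 ± 0.10 among WT (adjusted p = 3.34e-11) and 0.47 ± 0.10 among Hom mice (adjusted p = 0.00138), and *Abcb1b*, the second mouse P-glycoprotein gene and a near copy of *Abcb1a*, had 0.50 ± 0.10 (adjusted p = 0.000591) and 0.34 ± 0.10 (adjusted p = 0.0392), while *Abcb1a* itself had -0.08 ± 0.07 and -0.02 ± 0.07. How the counting treated reads shared by the pair is not given in the sources used here. Of the 13 genes of Wnt signalling in the barrier, 1 rose among WT mice, the co-receptor *Lrp5* (0.57 ± 0.13, adjusted p = 0.00253). Among Hom mice *Tspan12* rose (0.38 ± 0.09, adjusted p = 0.00305) and 4 fell, among them the pathway targets *Axin2* (-0.27 ± 0.08, adjusted p = 0.0355) and *Apcdd1* (-0.37 ± 0.11, adjusted p = 0.0366) and the Wnt7 co-receptor *Adgra2* (-0.32 ± 0.10, adjusted p = 0.0451). The fourth, *Sox17*, an endothelial transcription factor, fell by 0.37 on the log2 scale (SE 0.12, adjusted p = 0.0482). These calls among Hom mice depended on the fit. Without replicate 19, *Tspan12* stayed called (0.36 ± 0.09, adjusted p = 0.00809) and 0 of the 13 were called lower, with adjusted p from 0.0690 for *Axin2* to 0.102 for *Sox17*. The GC measure averaged 0.14 in non-amyloid and -0.16 in amyloid Hom mice, and with it as a covariate *Tspan12* and *Lrp5* were called higher and *Sox17* alone lower. None of the 13 passed the test of the interaction in any of these 3 fits. Among the 9 tested genes of endothelial activation, the leukocyte adhesion molecule *Icam1* rose in both genotypes (1.07 ± 0.16, adjusted p = 4.22e-06, and 0.56 ± 0.16, adjusted p = 0.0282), and among WT mice *Lcn2* rose (2.29 ± 0.76, adjusted p = 0.0479) and *Apln*, a peptide of endothelial tip cells, fell (-0.34 ± 0.10, adjusted p = 0.0225). *Icam1* among Hom mice had 0.52 ± 0.17 without replicate 19 (adjusted p = 0.0629), and *Abcb1b* among Hom mice had 0.248 ± 0.10 with the GC measure as a covariate (adjusted p = 0.121), so neither was called there.

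Of the 20 other endothelial markers, 12 had a positive and 8 a negative log2 fold change among WT mice (median 0.01, with 0.00 over all genes), and 6 and 14 among Hom mice (median -0.12, with 0.03 over all genes). Of the 12 other pericyte markers, 9 and 3 did so among WT mice (median 0.13) and 7 and 5 among Hom mice (median 0.04). These are descriptions with no test of the lists. Of the 20 endothelial markers, *Ctla2a* rose (0.83 ± 0.22, adjusted p = 0.00741) and *Itm2a* fell (-0.30 ± 0.09, adjusted p = 0.0364) among WT mice, and *Sox17* alone was called among Hom mice. Of the 12 pericyte markers 0 were called in either genotype, with 1 and 2 at an unadjusted p under 0.05. Of all genes, 20.9% among WT and 22.6% among Hom mice had such a p. The summed level of the 20 endothelial markers ran from 280 to 335 CPM in non-amyloid WT, from 308 to 343 in non-amyloid Hom, from 279 to 375 in amyloid WT and from 251 to 381 in amyloid Hom mice, and that of the 12 pericyte markers from 93.8 CPM in the lowest to 149 CPM in the highest library, with group medians of 109, 106, 122 and 111 CPM in the same order. The ranges of all 4 groups overlapped for both lists.

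Markers of other cell types moved with the cohort. All 8 microglial markers were called higher among WT and 7 of 8 among Hom mice of the amyloid cohort (6 of 8 without replicate 19 and with the GC measure as a covariate), and their summed level ran from 324 to 429 CPM in non-amyloid WT, from 359 to 409 in non-amyloid Hom, from 617 to 1377 in amyloid WT and from 499 to 839 in amyloid Hom mice. Several of the genes called above, such as *F11r*, *Icam1* and *Nrp1*, are expressed outside the endothelium too. The transporter *Slco2b1* rose by 1.07 among WT and 0.47 among Hom mice on the log2 scale. The medians over the 8 microglial markers were 1.15 and 0.65. The part of other cells in the rise of *Slco2b1* and of these other genes was not tested. In the main fit of Hom against WT mice of the amyloid cohort, 0 of the 8 microglial markers were called, and 7 were lower at an unadjusted p under 0.05. Of the 8 astrocyte markers 3 were called higher among WT and 2 among Hom mice. Of the 8 neuronal markers 0 were called between the cohorts, and of the 7 oligodendrocyte markers 1 was called, higher among Hom mice. Of the 8 smooth muscle markers *Myh11* fell among WT mice (-0.44 ± 0.13, adjusted p = 0.0229) and 0 were called among Hom mice. Of the 11 fibroblast markers *Slc6a13* rose in both genotypes (0.51 ± 0.14 and 0.43 ± 0.14, adjusted p = 0.0105 and 0.0450), and 1 further marker, *Igf2*, rose among Hom mice (0.42 ± 0.13, adjusted p = 0.0456). *Igf2* was not called without replicate 19 (adjusted p = 0.0752), nor were *Igf2* and *Slc6a13* among Hom mice with the GC measure as a covariate (adjusted p = 0.100 and 0.0623). Choroid plexus markers, which come with tissue next to the cortex, summed to between 9.49 and 682 CPM in single libraries, and the highest library of each group had between 200.3 and 682 CPM. The group means were 34.4 CPM in non-amyloid WT, 85.3 in non-amyloid Hom, 93.9 in amyloid WT and 229.7 in amyloid Hom mice, with medians of 16.5, 15.6, 22.4 and 28.2 CPM in the same order, so that a few high libraries carry the means. Of the 6 markers, 0 were called between the cohorts or between Hom and WT mice, although all 6 had a positive log2 fold change in each of these 4 comparisons. Their part in the members' values was not tested. Erythroid markers summed to between 1.26 and 49.0 CPM, and 0 of 5 were called.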

How the data were processed

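Poly-A selected RNA from the cortex of 40 mice was sequenced as paired-end reads. The authors deposited raw counts per gene, whole numbers with no normalization. The methods of the study name MAP-RSeq with TopHat and Bowtie, and the submitters' processing notes name STAR 2.5.2b and featureCounts 1.5.1, both on mm10, so the aligner behind the deposited counts is uncertain. The strand setting is not given in the sources used here. The study left out 1 amyloid Hom female because of a low gene count percentage and its strand-ness check. The labels do not name that mouse, and all 40 libraries were kept. Amyloid Hom replicate 19, with the lowest total and the highest antisense share, is a female of that group. Whether it is the mouse that the study left out is not given. The labels gave each mouse its group and number.

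The filter kept genes that reached 10 counts in 4 or more libraries. Comparisons used edgeR 4.0.16 (TMM, quasi-likelihood test) in R 4.3.3. Hom and WT mice were compared within the 20 libraries of a cohort, with TMM factors from those 20, and the other comparisons used all 40. TMM factors from all 40 libraries, the GC measure as a covariate or regressed out, and the gene lists without amyloid Hom replicate 19 were alternatives chosen after seeing the data. Printed CPM use TMM factors from the 40 libraries. Log2 CPM for correlations had a prior count of 2. Alternatives were DESeq2 1.42.0, limma 3.58.1 (voom with quality weights), other scalings, no filter, sex or the GC measure as a covariate, another choice of libraries and each library left out. The edgeR procedure was tried on simulated counts for Hom against WT in the amyloid cohort and for amyloid against non-amyloid among WT mice. The simulated spread was the same for all genes, with no variation between libraries linked to GC content. The permutation tests of correlations were not tried on simulated data.

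At 41646271 to 105903846 counts per library, counting error was between 1.11% and 7.97% of a member's level on average in a group, below the spread between mice for each member in each group. All intervals of fold changes are 95% confidence intervals. The members and gene lists were chosen with earlier results of these data known. Further genes in the text follow a rule: they are the ligands, receptors and partners of members, *Trem2*, and, in each list and comparison described, the called genes (at most 4 with the lowest p) or otherwise the gene with the lowest p. *Sox17* is on 2 lists.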

Additional observations from a re-analysis of the deposited data

Results flagged for a closer look

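The outlying mouse was looked for in each of the 40 groups of 10 values (10 members in 4 groups), where chance alone sets about 1 in 20 apart. *Tek* in non-amyloid Hom replicate 6 was the 1 found, at 20.8 CPM with the next highest mouse at 18.1 CPM. The same mouse had the highest *Slco1a4*, *Abcb1a* and *Rgs5* of its group, at 73.9, 44.2 and 117 CPM. Its GC measure was -0.38, with the group between -0.54 and 0.51.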

How the results depend on the processing

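The count of members called was 0 under all alternatives for Hom against WT in both cohorts, the interaction and the sexes. For amyloid against non-amyloid it was 1 among WT mice, but 0 without the filter on low counts and 0 to 1 with a single library left out, and 1 among Hom mice, but 0 in the fit of the 20 Hom libraries, 2 with the GC measure and 0 to 1 with a library left out. Pairs with an adjusted p under 0.05 numbered 19 to 24 with a library left out and 17 with the GC measure regressed out. Directions turned for values near 0. In the amyloid cohort *Flt1* became -0.00415 with library size alone and -0.00017 with sex as a covariate, and *Slc2a1* 0.030 by limma-voom and 0.056 with the GC measure. *Cldn5* in the non-amyloid cohort became -0.0092 with the GC measure. Among Hom mice between the cohorts *Abcb1a* became 0.023 by limma-voom, and *Pdgfrb* 0.030 and *Kcnj8* 0.044 with the GC measure, and the r of *Cldn5* and *Rgs5* became 0.093. With a library left out, *Flt1* lay between -0.026 and 0.049 and *Pecam1* between -0.0041 and 0.029 for Hom against WT in the amyloid and non-amyloid cohort, and among Hom mice between the cohorts *Flt1* lay between -0.060 and 0.014, *Abcb1a* between -0.054 and 0.017, *Rgs5* between -0.051 and 0.0054 and *Kcnj8* between -0.10 and 0.0086. The cause of these turns was not tested.

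Over all genes the count called for Hom against WT in the amyloid cohort changed with the setting. It was 16, and 303 by DESeq2, 24 by limma-voom, 55 with library size alone, 22 with upper-quartile normalization, 9 without the filter, 243 with sex as a covariate, 612 in one fit of all 40 libraries, 7 with the GC measure and 6 to 204 with a library left out. TMM factors from all 40 libraries gave 16 as well, with 2056 genes at an unadjusted p under 0.05 in place of 2102. Between the cohorts it was 1689 among WT mice, and 1553 to 2029 over the settings and 1424 to 1805 with a library left out, and 1395 among Hom mice, and 1240 to 2070 and 967 to 1639. In the non-amyloid cohort the count was 7, and 11 by DESeq2 and with the GC measure. For the interaction it was 0, and 38 by DESeq2, 12 with sex as a covariate and 0 to 22 with a library left out. Between the sexes it was 76, and 164 by DESeq2, 229 by limma-voom, 163 without the filter and 165 with the GC measure. No paired analysis was possible because the replicate numbers run from 1 to 40 and no number is shared between groups. *Kcnj8*, with 80 to 267 counts per library, is the member that depth limits most.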
